A study of Saccharomyces cerevisiae with 15 samples.

Results

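Ribosome footprints were compared between old and young wild-type mother cells of the budding yeast Saccharomyces cerevisiae, to describe which proteins were being made more or less after 30 h of replicative ageing than after 2 h. The comparison rests on 4 of the 15 libraries of the study, chosen by their labels of strain, assay and age: 2 footprint libraries of young and 2 of old wild type. The other libraries are wild-type mRNA and both assays of a strain lacking the RNA-binding protein Cth2, whose gene is TIS11 in the deposited tables. The wild type is UCC8773, a strain of the Mother Enrichment Program, and the deletion strain was derived from it. In the program, estradiol turns on a Cre recombinase that acts in newborn daughters and removes the essential genes UBC9 and CDC20, so that daughters stop dividing while mothers go on. Per the labels' protocols, wild-type and deletion cells alike carried biotin on their surface, grew at 30 °C in YPD medium with 1 uM estradiol and were collected on magnetic beads, young cells after 2 h and old cells after 20 h plus a further 10 h in which fresh medium had been added. Age, time in culture and the state of the medium thus changed together and cannot be told apart.

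Ribosome profiling sequences the stretches of mRNA that ribosomes shield from nuclease, so that the footprints of a gene follow its mRNA level and the density of ribosomes on that mRNA. A footprint level is a share of all footprints in a library: it does not give the number of proteins made per cell, and in such bulk samples fewer cells that make a protein and less of it per cell cannot be told apart. Yeast cells adjust their footprints with iron, oxygen, phosphate and carbon supply through separate sets of genes, among them the iron genes switched on by Aft1, the cell wall mannoproteins of anaerobic cells and the phosphatases switched on by Pho4.

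The young libraries held 4031646 and 4009853 counts and the old ones 4356622 and 3887909. Of the 7127 genes listed, 5308 passed the low-count filter in the fit of all 8 footprint libraries. Levels are given as CPM, counts relative to library size after TMM scaling, a trimmed mean of gene ratios, and 3 counts correspond to 0.689 to 0.772 CPM in these 4 libraries before that scaling. The young libraries differed from each other more than the old ones: across 5013 genes the log2 difference between replicates had an SD of 0.59 in young and 0.23 in old cells, and the biological coefficient of variation was 28.7% and 8.50%, against the 21.5% shared by all 8 libraries. The labels do not say whether replicate libraries came from separate cultures, so p-values measure only the spread between these samples.

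In old cells 107 genes rose and 51 fell in the edgeR quasi-likelihood test at a Benjamini-Hochberg adjusted p under 0.05, which is 2.98% of the genes tested (2.02% higher and 0.961% lower). An unadjusted p under 0.05 was reached by 1217 of the 5308 genes tested, the share against which such counts in the lists below are to be read. For each of the 158 genes called the young and old libraries did not overlap, as was so for 58.0% of all genes tested. The genes that rose had medians of 8.33 CPM per kb in young and 44.0 CPM per kb in old cells. Those that fell had medians of 421 and 168 CPM per kb, and all genes tested had 32.2 and 34.0. A gene near 0 in young cells can pass the filter only through another group, and a fall needs counts to start from. The contrast in young levels is thus partly fixed by the filter and the test. Together the genes that rose took 0.619% and 0.657% of all footprints in the young libraries and 2.13% and 2.47% in the old, and the genes that fell took 14.2% and 13.7% in young and 9.17% and 8.48% in old. The median log2 fold change was 2.09 among the genes that rose and -1.10 among those that fell, against 0.01 over all genes tested.

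The number of calls depended on every one of the 4 libraries. It was 77 without young replicate 1, 52 without young replicate 2, 28 without old replicate 1 and 14 without old replicate 2, and 74 when the 4 wild-type libraries were fitted alone. Of the calls, 14 stood under each of the 12 alternative fits, and each of the 14 had risen: PAU5, DAN1, TIR4, PBI1, NFT1, DAN4, YMR317W, PUT1, AUS1, HUG1, ARN1, HMX1, TIR1 and FTR1. Dividing by library totals in place of TMM factors moved the median gene up by 0.34 on the log2 scale and the share of calls that were higher from 67.7% to 95.1%, so directions of change are relative to the typical gene throughout.

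**Figure D1:**
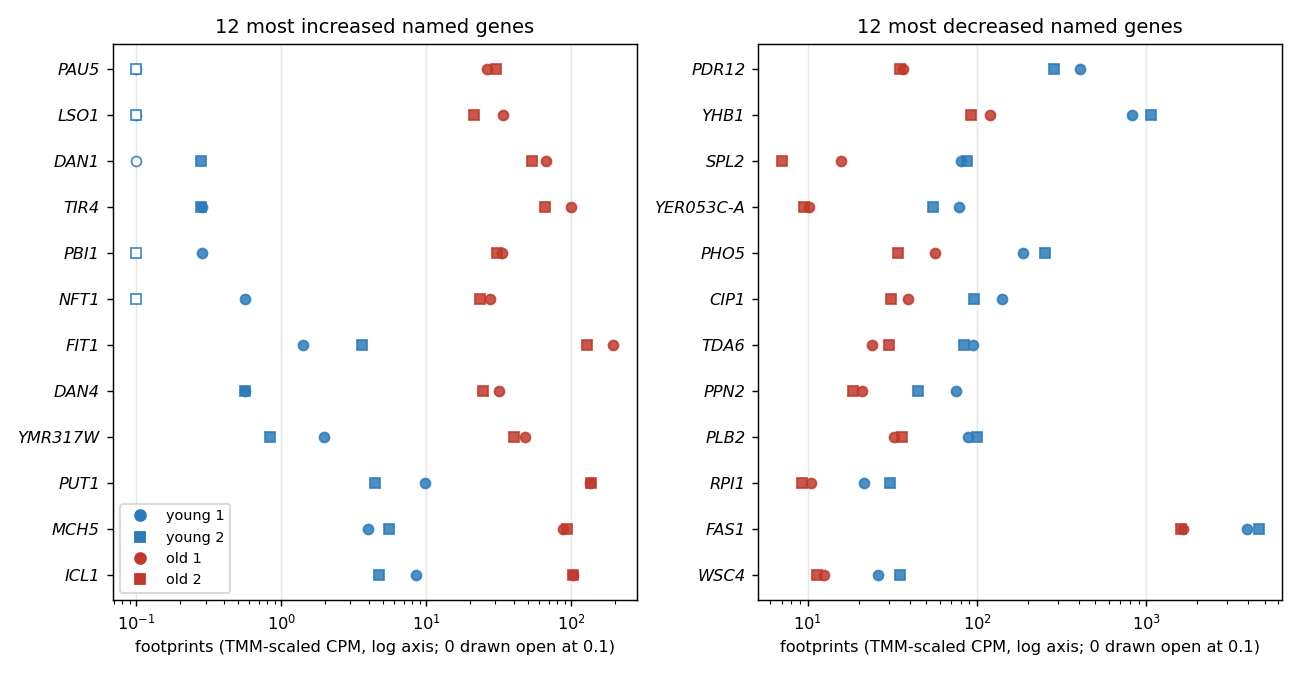
Footprint levels in CPM on a log axis for the 12 most increased and the 12 most decreased genes that passed the test, with 1 point for each of the 4 wild-type libraries; young libraries are blue, old libraries are red and a level of 0 is an open symbol. Old and young points do not overlap for any of these genes, the increased genes are at or below 9.87 CPM in both young libraries, and the old libraries of YHB1 are at 118 and 91.9 CPM.

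Genes of iron uptake and iron sparing rose in old cells. Of 31 tested genes of the iron regulon 13 rose and none fell, and their median log2 fold change was 1.01 against 0.01 over all genes. The list took 0.162% and 0.188% of footprints in the young libraries and 0.671% and 0.764% in the old. Leaving out the young replicates in turn left 9 and 6 of its genes called and leaving out the old replicates 5 and 3. Aft1 and its partner Aft2 activate these genes in low iron through the sequence TGCACCC, and that heptamer was searched on both strands in the 500 bases before each start codon. It was present before 12 of the 13 iron genes that rose, 16.3% of all genes that rose and 2.3% of all genes tested. Of all 31 tested genes of the list, called or not, 22 held it (71.0%). The windows below, from the RefSeq R64 genome and read 5′ to 3′ in the direction of each gene, show it for 6 of these genes whose values follow, with the heptamer or its reverse complement in capitals.
FIT1 (chrIV:1505046-1505112, minus strand, 175 bases before the start codon): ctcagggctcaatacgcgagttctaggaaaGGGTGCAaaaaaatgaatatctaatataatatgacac
LSO1 (chrX:448867-448933, minus strand, 138 bases before the start codon): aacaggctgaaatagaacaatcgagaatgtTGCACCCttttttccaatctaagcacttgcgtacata
ARN1 (chrVIII:21195-21261, minus strand, 253 bases before the start codon): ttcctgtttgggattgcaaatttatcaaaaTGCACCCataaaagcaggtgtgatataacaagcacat
FTR1 (chrV:461879-461945, minus strand, 168 bases before the start codon): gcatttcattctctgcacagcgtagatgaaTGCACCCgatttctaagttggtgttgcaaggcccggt
HMX1 (chrXII:554092-554158, minus strand, 444 bases before the start codon): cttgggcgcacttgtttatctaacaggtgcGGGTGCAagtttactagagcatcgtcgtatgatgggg
TIS11 (chrXII:416795-416861, minus strand, 166 bases before the start codon): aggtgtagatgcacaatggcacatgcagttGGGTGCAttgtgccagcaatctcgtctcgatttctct

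Genes of the siderophore route rose. FIT1, a cell wall mannoprotein that holds iron-bound siderophores (YDR534C, chrIV:1503314-1504900, minus strand), had 1.41 and 3.62 CPM in the young libraries and 195 and 129 CPM in the old, a log2 fold change of 5.99 (SE 0.74, edgeR adjusted p = 0.0114). ARN1, a siderophore-iron transporter (YHL040C, chrVIII:19088-20971), rose from 13.8 and 14.5 to 128 and 157 CPM, by 3.33 on the log2 scale (SE 0.18, edgeR adjusted p = 0.00107). The 2 young values of ARN1 lie close together and far below both old values, and its call stood under 12 of 12 alternatives. Its relatives SIT1 and ARN2 were at 53.9 and 64.9 and at 31.0 and 43.2 CPM in young cells and at 275 and 331 and at 199 and 264 CPM in old cells, with log2 fold changes of 2.35 and 2.64. FIT3 reached 1695 and 1656 CPM in old cells from 190.4 and 337 CPM. FIT2, another such mannoprotein, had 239.5 and 367 CPM in young and 1194 and 1386 CPM in old cells without passing the test (edgeR adjusted p = 0.0589).

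The reductive route and the factors that spare iron also rose. FTR1, the high-affinity iron permease (YER145C, chrV:460526-461740), went from 85.8 and 106 to 365 and 464 CPM (log2 fold change 2.11, SE 0.19, edgeR adjusted p = 0.00345). FET3, the multicopper oxidase that works with Ftr1, rose less, from 372 and 410.0 to 672 and 816 CPM or by 0.93 on the log2 scale. CCC2, which loads copper for Fet3, rose by 2.18. HMX1, a heme oxygenase that frees iron from heme (YLR205C, chrXII:552724-553677), rose from 6.21 and 5.57 to 41.9 and 42.1 CPM (log2 fold change 2.83, SE 0.19, edgeR adjusted p = 0.00129). Both libraries of each age agree closely for HMX1. TIS11, which makes the Cth2 protein that promotes decay of mRNAs for iron-using proteins when iron is low (YLR136C, chrXII:415801-416658), rose from 16.9 and 7.80 to 96.4 and 117 CPM, by 3.11 on the log2 scale (SE 0.45, edgeR adjusted p = 0.0202). The young values of TIS11 are farther apart than the old ones, and its call stood under 7 of 12 alternatives. Its SE and p also draw on the few TIS11 counts of the deletion strain in the joint fit. These were at 0.354 and 0.570 CPM in young and 1.05 and 5.33 CPM in old deletion cells.

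LSO1, a small protein whose gene responds to low iron (YJR005C-A, chrX:448477-448758), had 0 counts in both young libraries and 162 and 94 counts in the old, or 33.6 and 21.3 CPM. Against a floor of 3 counts over the young group its level was at least 65.9-fold higher in old cells (edgeR adjusted p = 0.0103). Of the 31 genes, 3 had a negative fold change without passing the test, among them FRE4, a reductase of the same family as FRE5, with 6.49 and 4.18 CPM in young and 1.45 and 2.94 CPM in old cells. FRE5 itself rose from 0.282 and 0.836 to 13.1 and 18.8 CPM.

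Listed mRNA targets of Cth2 gave no call. None of the 23 listed Cth2 targets was called in either direction, and their median log2 fold change was -0.07. An unadjusted p under 0.05 was reached by 4 of them, against 1217 of all 5308 genes tested. ACO1, the iron-sulfur enzyme aconitase and one of the 2 most abundant targets, had 1399 and 1087 CPM in young and 1565 and 1905 CPM in old cells, and the lowest old value exceeds the highest young one (edgeR adjusted p = 0.206). WTM1, the other, had 1535 and 928 and 741 and 837 CPM (edgeR adjusted p = 0.275). Among 42 respiratory chain genes none was called, the median was -0.10 (0.14 without young replicate 1 and -0.30 without young replicate 2), and ATP1 and ATP2, catalytic subunits of the ATP synthase, had log2 fold changes of -0.11 and 0.10. The 70 tested mitochondrial ribosomal protein genes had no call either and a median of 0.18.

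**Figure D2:**
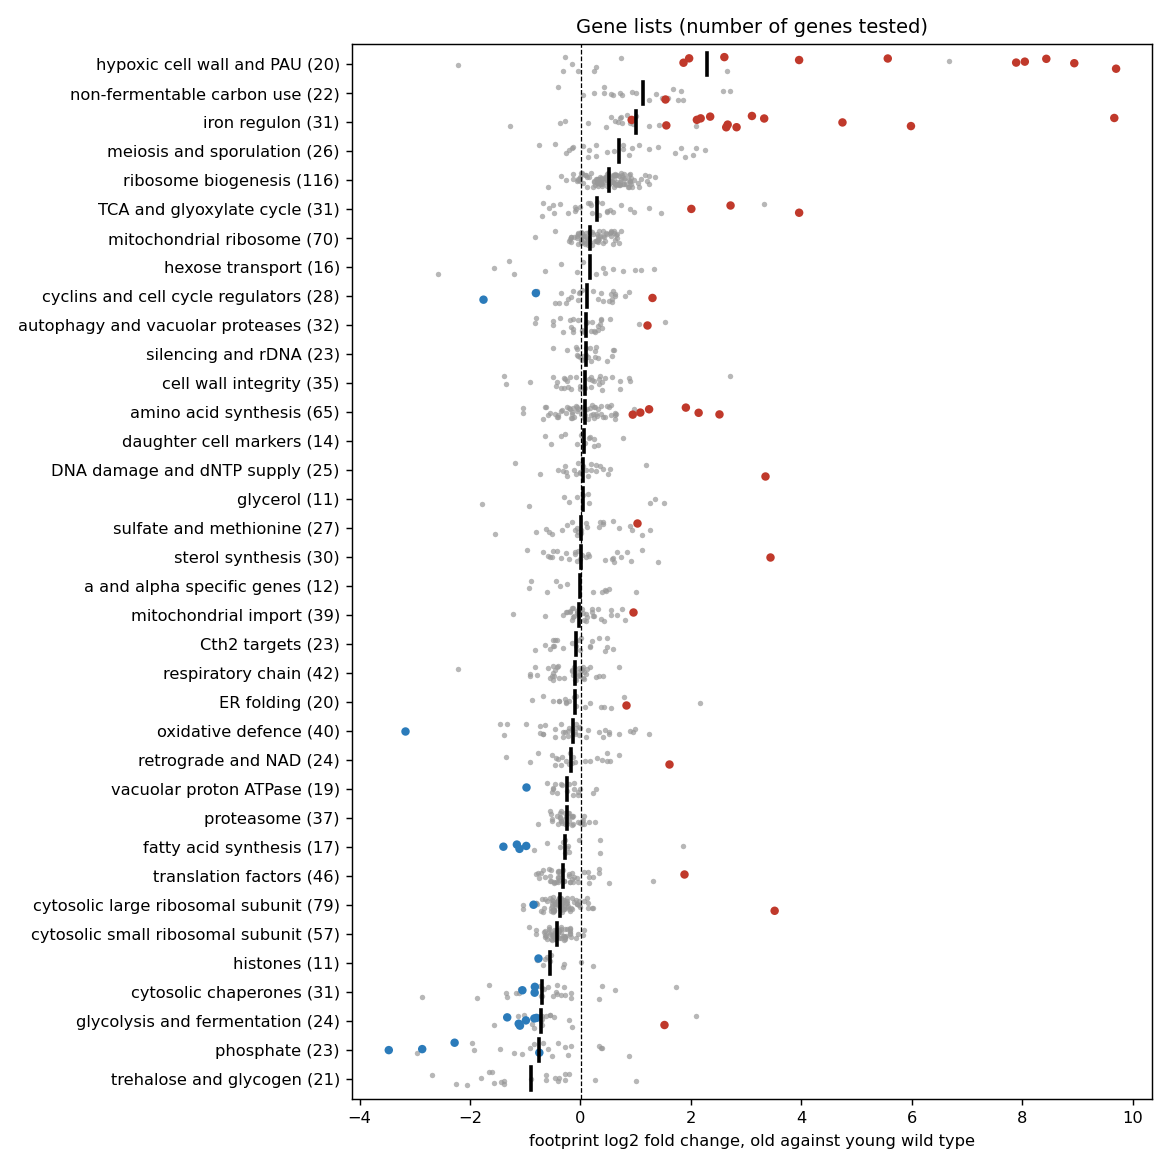
Log2 fold change of footprints, old against young wild type, for each tested gene of the lists, 1 point a gene; genes that passed the test are red when higher and blue when lower, black bars are list medians and the number tested is in parentheses. Iron regulon and hypoxic cell wall genes carry most red points to the right, and glycolysis, phosphate, chaperone and fatty acid genes carry most of the blue ones.

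Cell wall mannoproteins and sterol uptake proteins that yeast makes when oxygen or sterol is short gave several of the steepest rises. The listed group of hypoxic cell wall and PAU genes held 38 genes, of which 20 passed the count filter and 18 did not. Because a gene near 0 in young cells enters only if old cells make it, the 10 that rose are given as a description (none fell, and the median of the 20 was 2.29). The calls numbered 10 and 9 without each young replicate and 6 and 5 without each old one. Upc2, the activator of many of these genes, binds TCGTATA. These 7 letters were found on either strand within 500 bases before 5 of the 10 genes that rose, 8 of the 20 tested genes of the list and 6.99% of all genes tested. Among all called genes the share was 11.5% of those that rose and 11.8% of those that fell. TCGTATA was not found before TIR1 and TIR4, nor before AUS1 and HES1, which are described below. No other sequence was searched for Upc2. The windows from RefSeq R64 show the match, in capitals as its reverse complement, for the pair with the largest change that hold it and have no near-identical copy.
DAN1 (chrX:709874-709940, minus strand, 196 bases before the start codon): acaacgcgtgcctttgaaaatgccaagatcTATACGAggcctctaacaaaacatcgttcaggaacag
PAU5 (chrVI:99815-99881, minus strand, 245 bases before the start codon): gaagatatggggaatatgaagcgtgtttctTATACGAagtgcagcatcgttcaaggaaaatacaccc

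PAU5, a seripauperin of the cell wall (YFL020C, chrVI:99231-99599), had 0 counts in both young libraries and 126 and 133 in the old, at least 66.7-fold more than the floor of 3 counts (edgeR adjusted p = 0.00259). DAN1, a mannoprotein of anaerobic cells (YJR150C, chrX:708811-709707), had 0 and 1 counts in young and 322 and 237 in old cells, a ratio of scaled counts of 432 with a 95% exact interval from 77.2 to 17079 that covers counting error only. TIR4, of the same family (YOR009W, chrXV:344335-345798), had 1 count in each young library and 483 and 291 in the old, a ratio of 299 (interval 82.4 to 2472). All these genes were near the detection limit in young cells and well above it in both old libraries. DAN4, the neighbour of DAN1 (chrX:712255-715740), rose from 0.564 and 0.557 to 31.5 and 24.7 CPM (log2 fold change 5.57, SE 0.43, edgeR adjusted p = 0.00196). TIR1 and TIR3 were already translated in young cells and rose from 55.6 and 62.4 to 365 and 354 CPM and from 29.6 and 40.7 to 133 and 143 CPM. PAU3, PAU17, PAU24 and ANB1 also passed the test, but each has a near-identical paralog in the genome, so that their values are uncertain.

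The other tested genes of the hypoxic list were not called. CYC7, the hypoxic form of cytochrome c, had 197 and 57.9 CPM in young and 25.1 and 29.7 CPM in old cells, lower in old cells without passing the test (edgeR adjusted p = 0.136). HEM13, a heme enzyme induced by low oxygen, had a log2 fold change of -0.31. CWP2, a cell wall protein that makes up most footprints of the list, was at 2579 and 2634 CPM in young and 2255 and 2056 CPM in old cells. The summed level of the list was 3504 and 3399 CPM in young and 3731 and 3619 CPM in old cells. That sum mostly follows CWP2 and does not describe the genes of the list that rose. AUS1, the plasma membrane importer of sterols used without oxygen (YOR011W, chrXV:349679-353863), rose from 8.75 and 10.6 to 98.7 and 109.8 CPM (log2 fold change 3.43, SE 0.21, edgeR adjusted p = 0.00107). It was the single call among 30 sterol genes, whose median was 0.01. HES1, an oxysterol-binding protein chosen here after its values were seen, had 0 counts in young and 45 and 36 in old cells.

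Several enzymes of sugar fermentation fell, and a few enzymes of other carbon routes rose. Of 24 genes of glycolysis and fermentation 6 fell (ADH1, HXK2, TDH3, FBA1, ENO2 and PGK1), PDC5 rose, and 22 had a negative fold change, with a median of -0.72. The list took 21.5% and 18.7% of all footprints in the young libraries and 14.7% and 13.6% in the old. ADH1, which makes ethanol (YOL086C, chrXV:159548-160594), went from 27115 and 22445 to 12894 and 12102 CPM (log2 fold change -0.99, SE 0.18, edgeR adjusted p = 0.0397). HXK2, the hexokinase of glucose-grown cells (YGL253W, chrVII:23935-25395), fell from 3171 and 3199 to 1549.7 and 1432 CPM, with a log2 fold change of -1.10 (SE 0.15, edgeR adjusted p = 0.0131). ENO2, enolase, showed 24409 and 23203 and 10186 and 8803 CPM, but ENO2 and TDH3 have near-identical copies and their counts are uncertain. Per kb of coding sequence, TDH3 remained the most translated of the listed enzymes, at 29672 CPM per kb in young and 17097 in old cells. These calls came from the joint fit of both strains. No glycolytic gene was called in the 4 wild-type libraries alone or without either old replicate, and 2 and 1 fell without each young one.

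**Figure D3:**
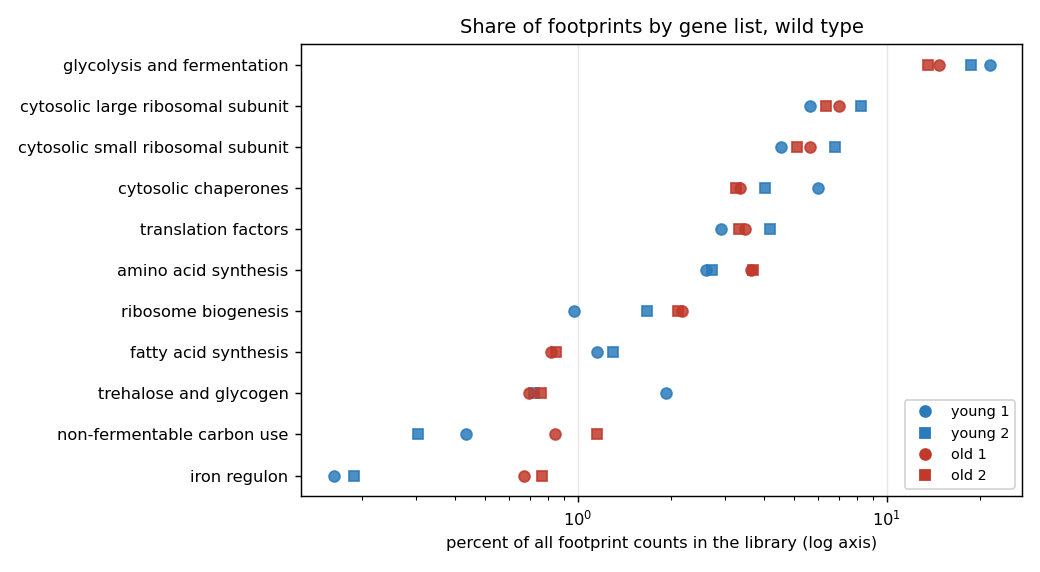
Percent of all footprints in each wild-type library taken by 11 gene lists, on a log axis, with 1 point a library. Glycolysis and fermentation falls from 18.7% or more in young to 14.7% or less in old libraries, the iron regulon rises from 0.188% or less to 0.671% or more, and the young libraries stand apart from each other for trehalose and glycogen, chaperones and ribosomal proteins.

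A few genes on the lists of non-fermentable carbon use and of the TCA and glyoxylate cycle increased. ALD6, the cytosolic acetaldehyde dehydrogenase that makes acetate (YPL061W, chrXVI:432588-434090), rose from 2067 and 1663 to 4478 and 6323 CPM (log2 fold change 1.53, SE 0.25, edgeR adjusted p = 0.0303) and moved from rank 89 to rank 14 of all genes by CPM. PYC1, pyruvate carboxylase (YGL062W, chrVII:385196-388732), rose from 144 and 190.2 to 648 and 699 CPM (log2 fold change 2.01, SE 0.20, edgeR adjusted p = 0.00489). The old values of both genes are above all young values. ICL1, isocitrate lyase of the glyoxylate cycle (YER065C, chrV:285241-286914), rose from 8.46 and 4.74 to 103 and 103 CPM (log2 fold change 3.96, SE 0.57, edgeR adjusted p = 0.0202). MLS1, malate synthase of the same cycle, rose from 2.26 and 1.11 to 11.0 and 11.5 CPM. Of 22 tested genes of non-fermentable carbon use, 21 had a positive fold change and the list median was 1.13 (2.06 without young replicate 1 and 0.70 without young replicate 2), but ALD6 alone passed the test. The call of ALD6 stood under 5 of 12 alternatives, and neither in the 4 wild-type libraries alone nor with any 1 of them left out. In the list of 31 genes of the TCA and glyoxylate cycle, PYC1, MLS1 and ICL1 passed and the median was 0.29. Without young replicate 2 that median was 0.04 with 1 call, and the calls numbered 3 without young replicate 1, and 1 and 0 without old replicates 1 and 2. HXT3 and HXT2, the most abundant of 16 tested hexose transporters, had 615 and 838 and 627 and 807 CPM in old cells and 422 and 432 and 663 and 413 CPM in young cells, and no transporter was called.

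Genes of amino acid metabolism rose in parts. Of 65 amino acid synthesis genes 6 rose, among them CPA1, ARG3, ARG56, SER3 and GDH3, and none fell, while the list median of 0.07 was close to that of all genes. The calls numbered 2 without either young replicate, 0 without either old one and 2 in the 4 wild-type libraries alone. Gcn4, the activator of amino acid synthesis genes, binds TGACTCA. It was found on either strand within 500 bases before 4 of the 6 genes, 31 of all 65 listed genes (47.7%) and 4.2% of all genes tested. Among all called genes it was found before 8.65% of those that rose and 5.88% of those that fell. The windows from RefSeq R64 show TGACTCA in capitals for ARG3 and ARG56.
ARG3 (chrX:268455-268521, plus strand, 307 bases before the start codon): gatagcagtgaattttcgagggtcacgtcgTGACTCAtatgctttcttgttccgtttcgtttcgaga
ARG56 (chrV:295157-295223, plus strand, 216 bases before the start codon): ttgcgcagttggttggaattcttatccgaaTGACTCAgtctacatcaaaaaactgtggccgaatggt

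CPA1, a subunit of the arginine-specific carbamoyl phosphate synthetase (YOR303W, chrXV:882899-884134), rose from 20.0 and 34.0 to 97.9 and 105 CPM (log2 fold change 1.91, SE 0.29, edgeR adjusted p = 0.0221). The open reading frame YOR302W in its mRNA leader, which encodes the arginine attenuator peptide and was named here after its values were seen, rose as well, from 10.7 and 11.7 to 34.8 and 36.9 CPM (log2 fold change 1.67). ARG56, the kinase and reductase of arginine synthesis, went from 29.6 and 29.8 to 64.3 and 61.8 CPM, and GDH3, a glutamate dehydrogenase, from 7.34 and 6.13 to 26.3 and 33.3 CPM. SER3, an enzyme of serine synthesis, rose by 1.24 on the log2 scale. Its start overlaps the non-coding gene SRG1, and reads shared by the pair cannot be assigned. PUT1, the proline oxidase of mitochondria (YLR142W, chrXII:425186-426616), rose from 9.87 and 4.46 to 134 and 138 CPM (log2 fold change 4.24, SE 0.34, edgeR adjusted p = 0.00235), and its call stood under 12 of 12 alternatives. MCH5, a riboflavin transporter of the plasma membrane (chrXV:889867-891432), rose from 3.95 and 5.57 to 87.5 and 93.0 CPM (log2 fold change 4.23, SE 0.53, edgeR adjusted p = 0.0120). The call of MCH5 stood under 6 of 12 alternatives. BNA2, the first enzyme of NAD synthesis from tryptophan, rose from 14.4 and 7.80 to 34.8 and 32.6 CPM, and its end overlaps the gene YJR079W.

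A further 3 genes among the 12 with the largest rise have less known roles. NFT1, a putative ABC transporter near the right end of its chromosome (YKR103W, chrXI:653080-656736), had 2 and 0 counts in young and 133 and 103 in old cells, a ratio of scaled counts of 91.1 (95% exact interval 24.9 to 757, counting error only). PBI1 (YPL272C, chrXVI:26611-28164) had 1 and 0 and 160 and 136 counts, a ratio of 229 (interval 40.7 to 9058). YMR317W (chrXIII:907364-910786) rose from 1.97 and 0.836 to 47.9 and 40.5 CPM (log2 fold change 4.95, SE 0.40, edgeR adjusted p = 0.00235). Both old values of each of these genes exceeded both young values many times over. All 3 lie within 30 kb of a chromosome end, as did 12.5% of the 104 genes that rose and have a mapped position, 3.92% of the genes that fell and 3.70% of all genes tested.

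Most phosphate genes were lower in old cells, and a few passed the test. Of 23 listed genes 4 fell (PHO5, PHO12, SPL2 and VTC5), 19 had a negative fold change, and the median was -0.74. The calls numbered 4 and 0 without young replicates 1 and 2, and 1 and 0 without old replicates 1 and 2. Pho4, the activator of phosphate genes, binds CACGTG, which was found within 500 bases before 3 of the 4 genes, 16 of all 23 listed genes (69.6%) and 6.21% of all genes tested (it reads alike on both strands). Among all called genes it was found before 4.81% of those that rose and 5.88% of those that fell, no more than among all genes tested. The windows from RefSeq R64 hold CACGTG in capitals.
PHO5 (chrII:431169-431234, minus strand, 247 bases before the start codon): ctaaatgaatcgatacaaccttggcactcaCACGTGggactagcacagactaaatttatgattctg
SPL2 (chrVIII:375212-375277, minus strand, 141 bases before the start codon): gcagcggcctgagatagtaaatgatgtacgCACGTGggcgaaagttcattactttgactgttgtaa

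PHO5, the secreted acid phosphatase (YBR093C, chrII:429548-430951), went from 188 and 252 to 56.4 and 34.0 CPM (log2 fold change -2.28, SE 0.36, edgeR adjusted p = 0.0275). SPL2, a regulator of low-affinity phosphate transport (YHR136C, chrVIII:374654-375100), went from 80.4 and 86.9 to 15.8 and 7.02 CPM (log2 fold change -2.87, SE 0.38, edgeR adjusted p = 0.0134). For SPL2 the 2 young values are close to each other while the old ones differ more than the young, yet the ages do not overlap. PHO12, a second acid phosphatase, had 23.1 and 56.5 and 3.94 and 3.17 CPM, but it has a near-identical copy and its value is uncertain. PPN2, a polyphosphatase of the vacuole that is on no list (chrXIV:240331-241311), fell from 75.0 and 44.6 to 20.9 and 18.6 CPM (log2 fold change -1.60, edgeR adjusted p = 0.0472). The call of PPN2 stood under 6 of 12 alternatives. VTC5, which helps make polyphosphate, had a log2 fold change of -0.74.

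The steepest falls outside the phosphate genes were in export and defence. PDR12, the pump that expels weak organic acids (YPL058C, chrXVI:445842-450377), fell from 402 and 286 to 36.3 and 35.1 CPM (log2 fold change -3.27, SE 0.35, edgeR adjusted p = 0.00695). YHB1, the flavohemoglobin that removes nitric oxide (YGR234W, chrVII:959904-961103), fell from 826 and 1069 to 118 and 91.9 CPM (log2 fold change -3.17, SE 0.27, edgeR adjusted p = 0.00259). For both genes every old value was far below both young values, and the calls stood under 10 and 11 of 12 alternatives. YHB1 was the single call among 40 genes of oxidative defence, whose median was -0.14. Lower were also the small reading frame YER053C-A, from 78.4 and 54.9 to 10.2 and 9.51 CPM, and TDA6, from 94.2 and 84.1 to 23.8 and 30.1 CPM. PLB2, a phospholipase, fell by 1.47 on the log2 scale, RPI1 by 1.40 and WSC4, of the family of cell wall stress sensors, by 1.35. The calls of PLB2, RPI1 and WSC4 stood under 9, 6 and 4 of 12 alternatives.

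Fatty acid synthesis was lower at its main enzymes. FAS1, the beta subunit of fatty acid synthase (YKL182W, chrXI:100671-106826), fell from 3942 and 4599 to 1642 and 1605 CPM (log2 fold change -1.40, SE 0.15, edgeR adjusted p = 0.00695). FAS2, the alpha subunit (chrXVI:108652-114315), fell from 2749 and 2957 to 1372 and 1283 CPM (log2 fold change -1.10). Per kb, FAS1 and FAS2 were at 694 and 504 CPM per kb in young and at 264 and 234 in old cells. OLE1, the fatty acid desaturase, and ELO1, a fatty acid elongase, fell by 1.15 and 0.98 on the log2 scale. With these 4 calls among 17 tested genes the median was -0.29, and the calls numbered 2 and 1 without each young replicate and 0 without either old one.

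The lists of ribosome and chaperone genes gave few calls. None of 116 ribosome biogenesis genes was called by edgeR, and 106 had a positive fold change with a median of 0.51. An unadjusted p under 0.05 was reached by 15 of the 116, against 1217 of all 5308 genes tested. That median was 0.15 without young replicate 1 and 0.96 without young replicate 2. The list took 0.968% and 1.67% of footprints in the young libraries and 2.18% and 2.10% in the old. RPA135 and RPA190, the large subunits of RNA polymerase I, had log2 fold changes of 0.11 and 0.06, and the young libraries differ for them by more than the ages do. Ribosomal proteins themselves had medians of -0.42 for 57 small-subunit genes, with no call and 8 at an unadjusted p under 0.05, and -0.37 for 79 large-subunit genes, with 1 call in each direction. Without young replicates 1 and 2 the small-subunit median was -0.66 and -0.12 and the large-subunit median -0.60 and -0.07. Both calls are uncertain: RPL12B has a near-identical copy, and RPL43A, at 1 and 1 counts in young and 19 and 14 in old cells, is a paralog of similar sequence and equal length to RPL43B, which was at 719 and 1015 CPM in young and 583 and 480.1 CPM in old cells. The share of the small-subunit genes was 4.55% and 6.81% in young and 5.62% and 5.13% in old libraries, so the old values lie between the young ones.

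Of 31 cytosolic chaperone genes STI1, MBF1 and SSA2 fell, 27 had a negative fold change and the median was -0.69. STI1, a co-chaperone of Hsp70 and Hsp90, went from 2398 and 2181 to 1319 and 1259 CPM (log2 fold change -0.83, SE 0.15, edgeR adjusted p = 0.0398). MBF1, listed with them, is a transcriptional co-activator also known to act on stalled ribosomes, and fell by 1.05. SSA2, an Hsp70, has a near-identical copy. None of the listed chaperones was called in the 4 wild-type libraries alone or without either old replicate. Without young replicate 1 none fell, 1 rose and the median was -0.42, and without young replicate 2 there was 1 lower call and a median of -0.84. HSP104, the disaggregase, had 15162 and 5544 CPM in young and 3323 and 3231 CPM in old cells (edgeR adjusted p = 0.168). The 21 genes of trehalose and glycogen had a median of -0.90 and no call, with 8 at an unadjusted p under 0.05. That median was -0.17 without young replicate 1 and -1.38 without young replicate 2. TPS1 and UGP1, the 2 most abundant of them, had 3064 and 1287 and 4487 and 1955 CPM in young and 788 and 869.7 and 1673 and 1789.5 CPM in old cells. For HSP104, TPS1 and UGP1 alike, young replicate 1 is more than 2 times as high as young replicate 2.

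Few genes of the cell cycle and DNA damage lists passed the test. HUG1, a small inhibitor of ribonucleotide reductase made on DNA damage (YML058W-A, chrXIII:158760-158966), rose from 8.18 and 7.80 to 78.8 and 84.0 CPM (log2 fold change 3.34, SE 0.23, edgeR adjusted p = 0.00129) as the single call among 25 genes of DNA damage and nucleotide supply. CIP1, an inhibitor of the G1 cyclin-dependent kinase (YPL014W, chrXVI:527547-528692), fell from 139 and 95.8 to 38.8 and 30.8 CPM (log2 fold change -1.76, SE 0.23, edgeR adjusted p = 0.0131). Of 28 cyclins and regulators, SWI5, an activator of late-mitotic genes, also fell, from 150.1 and 169 to 94.1 and 88.1 CPM, and CKS1, a subunit of the cyclin-dependent kinase, rose from 18.1 and 26.5 to 58.7 and 51.4 CPM. HTB2, a histone H2B gene, fell by 0.76 on the log2 scale, the single call among 11 histone genes with a median of -0.55. HTB2 was not called with any 1 wild-type library left out, and of the 3 calls among the cyclins and regulators 1 was left without either young replicate and 0 without either old one.

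Young and old preparations were also checked for genes that mark newborn daughters. None of 14 tested markers was called, with 3 at an unadjusted p under 0.05, and their summed level was 2586 and 3697 CPM in young and 3060 and 3281 CPM in old cells, so the old values lie within the young range. CTS1, the chitinase that separates daughters, had 318 and 458 CPM in young and 367 and 414 CPM in old cells. The genes that the program removes in daughters were not called either: UBC9 had 24.3 and 27.3 and 36.7 and 34.6 CPM (edgeR adjusted p = 0.253) and CDC20 had 17.8 and 23.1 and 34.0 and 41.4 CPM (edgeR adjusted p = 0.0862). Among mating type genes the receptor of a cells, STE2, was at 341 and 524 CPM in young and 314 and 351 CPM in old cells, while the receptor of alpha cells, STE3, was at 2.82 and 1.67 and 2.28 and 3.62 CPM. None of the 12 tested mating type genes was called. Silencing and rDNA genes (23 tested, median 0.11), meiosis genes (26 of 61 tested, median 0.69) and 35 cell wall integrity genes (median 0.09) had no call, with 4, 7 and 8 genes at an unadjusted p under 0.05.

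Proteostasis outside the chaperones gave few calls. The 37 proteasome genes had none, a median of -0.24 and 11 at an unadjusted p under 0.05. Among 32 genes of autophagy and vacuolar proteolysis ATG11, a scaffold of selective autophagy, rose from 17.8 and 21.2 to 37.5 and 52.3 CPM. Among 19 genes of the vacuolar proton pump VPH2, an assembly factor, fell from 44.0 and 39.8 to 24.3 and 18.1 CPM, and the median was -0.24. FPR2, a prolyl isomerase of the ER, rose from 51.9 and 54.9 to 95.6 and 93.7 CPM, TIM22, an insertase of the inner mitochondrial membrane, from 22.01 and 21.2 to 37.3 and 46.0 CPM, and MET10, a subunit of sulfite reductase, from 50.5 and 40.7 to 99.5 and 85.3 CPM. Each of these 5 was the single call of its list, the lists gave no call with any 1 wild-type library left out, and the medians of the lists of FPR2, TIM22 and MET10 were -0.10, -0.02 and 0.02.

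Footprint changes were set beside mRNA changes from aliquots of the same lysates. In the mRNA, 57 of 5991 genes were called (0.951%), 52 higher (0.868%) and 5 lower (0.0835%). Of the 104 genes with risen footprints and an mRNA value 101 had a higher mRNA fold change and 38 were called in mRNA too. Of the 51 genes with fallen footprints 50 had a lower one and 4 were called. Among all 5284 tested genes with an mRNA value 3946 shared a sign in both assays. Of all genes tested, 55 were called in mRNA in the direction of their footprints. Across 4590 genes at a mean of at least 10 CPM the Pearson correlation of footprint and mRNA log2 fold changes was 0.773, a description over genes that share libraries and lysates. FTR1, ARN1, TIS11, SIT1 and PUT1 had mRNA log2 fold changes of 2.28, 3.19, 3.17, 2.89 and 3.88, beside footprint values of 2.11, 3.33, 3.11, 2.35 and 4.24.

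A test of the footprint change against the mRNA change, with no term for the shared lysates, called 4 of 6050 genes (0.0661%). All 4 had a larger footprint rise: NFT1, DAN4, YMR317W and PBI1. With the lysate as a block it called 411 genes (6.79%), 220 with a higher (3.64%) and 191 with a lower (3.16%) footprint than mRNA change. The 411 included TIR4, AUS1 and TIR1. Their log2 footprint change minus mRNA change, without the block, was 3.90, 1.25 and -1.16. The edgeR adjusted p with the block was 3.97e-05, 0.000383 and 0.000454. NFT1 mRNA was at 17.9 and 19.7 CPM in young and 37.5 and 35.6 CPM in old cells while its footprints went from 0.564 and 0 to 27.6 and 23.3 CPM, an excess of 5.43 on the log2 scale (SE 0.53, edgeR adjusted p = 0.00492). PBI1 mRNA was at 11.3 and 19.7 and 36.6 and 40.2 CPM, and its footprint excess was 6.30 (edgeR adjusted p = 0.0328). DAN4 mRNA was at 15.7 and 13.9 and 39.6 and 43.8 CPM and YMR317W mRNA at 27.0 and 23.0 and 64.8 and 52.8 CPM, with excesses of 4.10 and 3.73. In young cells these mRNAs were thus detected while their footprints were at 0 to 1.97 CPM. All 4 start from at most 10 footprint counts over both young libraries, so the fitted excess depends on few reads. ICL1 had an mRNA log2 fold change of 0.52 against 3.96 in footprints, and PDR12 had -1.27 against -3.27. Neither passed the test without the block (edgeR adjusted p = 0.111 and 0.194). Both passed with the lysate as a block (edgeR adjusted p = 0.00181 and 5.99e-10). That block takes mRNA and footprint libraries of equal number as sharing a lysate.

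**Figure D4:**
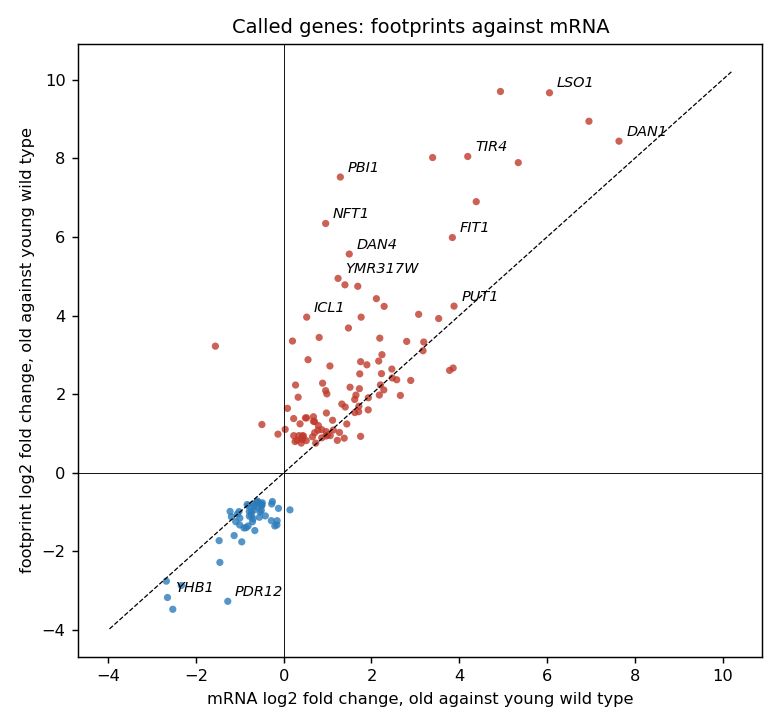
Log2 fold change, old against young wild type, in mRNA (horizontal) and in footprints (vertical) for the genes called from footprints that have an mRNA value; red points rose, blue points fell and the dashed line marks equal change. Most points share a sign in both assays, and PBI1, NFT1, DAN4 and YMR317W lie far above the line.

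The same age comparison in footprints of the deletion strain, which shares no library with the wild type, called 914 genes (17.2%), 486 higher (9.16%) and 428 lower (8.06%). Of the 158 wild-type calls 151 were called there in the same direction, which is 95.6% of the wild-type calls and 16.5% of those in the deletion strain. Both sets of calls came from the joint fit of all 8 footprint libraries, which shares its estimate of the spread, so they are not independent fits, and the 4 wild-type libraries alone gave 74 calls. TIS11 itself was at 0.354 and 0.570 CPM in young and 1.05 and 5.33 CPM in old deletion cells, against 16.9 and 7.80 and 96.4 and 117 CPM in wild type. A direct test of the difference in age change between the strains called 0 of 5308 genes by edgeR, with 152 at an unadjusted p under 0.05, and 0 under other size factors or with a replicate term. That test does not show that the strains act alike: the wild-type log2 fold change of FIT1 was 5.99 and the deletion value 4.28, and those of PHO5 were -2.28 and -4.32. LSO1, at 0 in both young wild-type libraries, had 4.24 and 1.33 CPM in young and 53.6 and 63.0 CPM in old deletion cells. For ARN1, PUT1 and YHB1 the deletion values were 3.58, 4.31 and -3.82. The median log2 fold changes of the daughter markers and of the mating type genes were 0.07 and -0.01 in wild type. In the deletion strain they were -1.11 and -1.05.

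**Figure D5:**
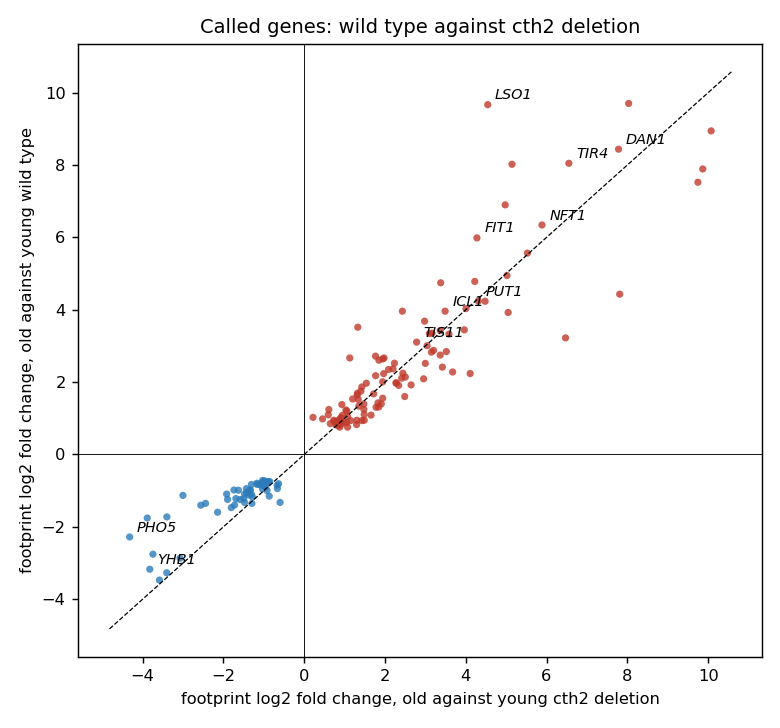
Footprint log2 fold change, old against young, in the cth2 deletion strain (horizontal) and in wild type (vertical) for the 158 genes called in wild type; red points rose and blue points fell in wild type and the dashed line marks equal change. All 158 points share a sign in both strains, as do 4441 of all 5308 genes tested. The fitted values of genes at 0 counts in young cells, such as PAU5 and LSO1, depend on the prior count.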

How the data were processed

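Per the file headers, the authors deposited raw counts per gene, unnormalised, with gene lengths beside them; these counts were whole numbers whose sums differed between libraries. Cutadapt 3.4, Bowtie 1.1.2, STAR 2.7.9a and the R64 build are named in the submitters' processing notes without their roles. The counting program and the use of strand are not given in the sources used here, so reads of overlapping or antisense genes cannot be told apart. Per the labels' protocols, footprints came from RNase I digestion and the monosome fraction of lysates with cycloheximide, and mRNA was poly(A)-selected from the same lysates. Of 7127 listed genes 6047 matched R64, and unmatched entries took 0.0318% to 0.126% of the wild-type footprint counts. Genes with at least 90% identity over at least 50% of their length to another (BLAST+ 2.17.0) were treated as uncertain.

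Counts were tested with edgeR 4.0.16 in R 4.3.3: TMM scaling, the filterByExpr low-count filter, a robust quasi-likelihood model of the group means, and Benjamini-Hochberg adjustment over all genes of a comparison, calling at an adjusted p under 0.05. The age effect came from all 8 footprint libraries, the mRNA effect from 7 mRNA libraries and the footprint-to-mRNA difference, an interaction of assay and age, from all 15. The SE of a log2 fold change was back-calculated from its F statistic and is approximate, most so at low counts. Intervals and floors of 3 counts cover counting error only, because PCR copies were not marked by molecular identifiers. The age test was checked on simulated data with an equal spread in every group and changes only in genes at a mean of at least 10 CPM. That check does not cover the unequal spread of young and old libraries or genes near 0 counts. Alternatives used DESeq2 1.42.0, limma 3.58.1, other scalings, filters and sample sets.

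The libraries, the 38 gene lists and the tests were chosen with earlier results of these data known, and the lists were written from general knowledge. Genes were named by a rule: the 12 highest and 12 lowest called fold changes at a mean of at least 10 CPM with no overlap and no near-identical copy, up to 4 called members of each list by adjusted p, the 2 members with most footprints where none was called, and TIS11, UBC9 and CDC20. FIT2, FIT3, ARN2, FET3, CCC2, FRE4, FRE5, PAU3, PAU17, PAU24, TIR3, CYC7, HEM13, CWP2, HES1, TDH3, PGK1, FBA1, HSP104, YOR302W, RPL43B and STE3 were named outside it, after their values were seen. Of 8 listed helicases of subtelomeric Y' elements 1 passed the filter, and of 11 glycerol genes and 46 translation factors 0 and 1 were called, with medians of 0.04 and -0.31.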

Additional observations from a re-analysis of the deposited data

How the results depend on the processing

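The count of calls (158, 107 higher and 51 lower) was within 1.5 times under DESeq2 size factors, without a count filter and with limma voom. It was 691 (657 higher) on library totals, 325 with DESeq2 (175 lower), and 74 (62 higher, 12 lower) in the 4 wild-type libraries alone. With 1 library left out, the remaining one assumed to vary like the other groups, the counts ran from 14 to 77, the higher calls from 14 to 57 and the lower from 0 to 20. Same-numbered young and old libraries did not deviate together (r = -0.17 across genes), and no pairing was assumed. The labels do not say whether equal numbers mark a shared batch, and this correlation cannot settle it. The replicate block left 46 calls (39 higher, 7 lower). A crossed replicate block, added after seeing the data, left 36 (30 higher, 6 lower). The lysate as a replicate block raised the footprint-to-mRNA count from 4 to 411. The cause was not tested.

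Relative to all genes, the hypoxic list's median was 1.97 in the 4 wild-type libraries alone. With 1 library left out, list medians ran from 0.93 to 1.31 (iron regulon), 1.70 to 2.43 (hypoxic), -0.88 to -0.69 (phosphate), -0.15 to 0.67 (hexose transport), -0.18 to 0.20 (sterol), -0.11 to 0.39 (silencing), 0.01 to 0.30 (cyclins) and -0.38 to -0.19 (proton ATPase). Left-out libraries also moved other list medians, given here without subtracting the median of all genes. These were Cth2 targets (-0.11 to 0.04), oxidative defence (-0.25 to 0.05), meiosis (0.36 to 1.17) and autophagy (-0.17 to 0.41). Further ranges were sulfate and methionine (-0.18 to 0.66), translation factors (-0.45 to -0.09), glycerol (-0.19 to 0.31) and ER folding (-0.22 to 0.01). The last were daughter markers (-0.18 to 0.40), mating type (-0.33 to 0.09), mitochondrial import (-0.02 to 0.07) and proteasome genes (-0.34 to -0.16). Without near-identical copies the glycolytic share differed by -3.61 percentage points, against -5.96.

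Named genes that changed sign were all uncalled. With size factors and DESeq2, the log2 fold change of CTS1 was -0.00718 and -0.00933. On library totals, ASC1 was 0.25, ATP1 0.23, RRP5 and MND2 0.20, RPN1 0.054, CCW12 0.042 and GPP1 0.038. With 1 library left out, log2 fold changes ran from -0.046 to 1.29 (SPO24), -0.21 to 0.84 (BAR1), -0.25 to 0.58 (RPA135), -0.072 to 0.29 (ATP2), -0.15 to 0.38 (PIR1), -0.51 to 1.07 (UBI4), -0.31 to 0.54 (RPA190), -0.35 to 0.53 (NOP1), -0.16 to 0.22 (MRPS12), -0.23 to 0.29 (CTS1), -0.34 to 0.23 (ASC1), -0.23 to 0.014 (ATP1), -0.49 to 0.33 (RRP5) and -0.30 to 0.033 (MND2). Genes under 3 counts in young cells are limited by depth.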

Other observations

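The following genes are on no list and were chosen after their values were seen. Transporters of nucleobases, nucleosides and thiamine rose in old cells: FUR4, the uracil permease, from 6.49 and 7.24 to 30.9 and 40.3 CPM, FUI1, the uridine permease, from 36.7 and 42.6 to 152 and 161 CPM, and THI7, the thiamine transporter, from 13.0 and 20.1 to 61.4 and 129 CPM. THI4, of thiamine synthesis, had 1.97 and 2.79 and 11.8 and 10.9 CPM, and SNZ1, of vitamin B6 synthesis, 10.4 and 4.46 and 51.6 and 48.7 CPM. URA1, dihydroorotate dehydrogenase of pyrimidine synthesis, rose from 1042 and 1347 to 2381 and 2282 CPM. All 6 genes passed the edgeR test, with log2 fold changes from 0.96 to 2.75.

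Other changes were single genes of lipid and amino acid turnover. INO1, which makes inositol phosphate, had 1.41 and 2.79 CPM in young and 21.98 and 24.4 CPM in old cells (log2 fold change 3.44, edgeR adjusted p = 0.0123), with an mRNA log2 fold change of 0.81. GCV2, of glycine breakdown, rose from 93.1 and 111 to 298 and 363 CPM and PUT2, which follows PUT1 in proline use, from 150.4 and 135 to 277 and 314 CPM. MLO1 footprints went from 0.564 and 0.836 to 7.47 and 7.47 CPM while its mRNA was at 40.5 and 27.4 CPM in young and 43.1 and 34.5 CPM in old cells, and the difference did not pass its test (edgeR adjusted p = 0.0920). SCP160, a polysome-bound RNA-binding protein, fell from 1470.5 and 1962 to 787 and 689 CPM, and the aminoacyl-tRNA synthetases GLN4 and THS1 fell by 0.79 and 0.79 on the log2 scale. Of the 107 genes that rose, 3 were entries with no R64 match, a tRNA, a small nucleolar RNA and a 5S ribosomal RNA, whose reads are not footprints of a coding sequence.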
